A study of Mus musculus with 9 samples.

Results

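The acyl-CoA thioesterase genes Acot1, Acot2, Acot3, Acot4, Acot8, Acot12 and Acot13 were followed across the livers of 3 genotypes of mice. The 7 members were taken by symbol from 41388 genes per deposited table, after Ensembl identifiers had been matched to mouse symbols, and all 7 had enough reads to be among the 14741 genes tested. The DKO mice carried the liver-specific deletion of Mttp together with a germline deletion of Fabp1, the MttpLKO mice carried the liver-specific deletion of Mttp with Fabp1 intact, and the control mice had the floxed Mttp alleles (Mttp fl/fl) without deletion. What all 27 mice shared was the C57BL/6J background, male sex, standard chow, an intraperitoneal dose of diethylnitrosamine (DEN, a liver carcinogen) of 25 mg/kg at 14 days of age, and collection of the liver at 6 months. Each library was made from the oligo(dT)-selected RNA of 3 mice of 1 genotype, with 3 libraries per genotype. The promoter that drove the recombinase is not given in the sources used here, no mice without DEN and no mice lacking Fabp1 alone were analysed here, and values of single mice within a pool were not measured.

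Acyl-CoA thioesterases cut fatty acyl-CoA into free fatty acid and coenzyme A. They act opposite to the acyl-CoA synthetases and so set how much activated fatty acid each compartment of the hepatocyte holds for oxidation, esterification or export. Mttp transfers triglyceride to nascent VLDL particles, and Fabp1 is the abundant cytosolic fatty acid-binding protein of hepatocytes, which also carries ligands to the nuclear receptor PPARalpha. Members of the type I group (Acot1 in the cytosol, Acot2 in mitochondria, Acot3 and Acot4 in peroxisomes) are close paralogs and are known in mouse liver as genes that PPARalpha induces. The other members are unrelated to these in sequence and carry a hotdog fold. Acot8 is the peroxisomal enzyme with a wide range of substrates, Acot12 cleaves acetyl-CoA in the cytosol, and Acot13 (also called Them2) cleaves long-chain acyl-CoA at mitochondria and binds the phosphatidylcholine transfer protein Pctp.

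The 4 type I members lay side by side on chromosome 12, all on the plus strand, in the order Acot2 (ENSMUSG00000021226, 83987861 to 83993873), Acot1 (ENSMUSG00000072949, 84009502 to 84017670), Acot4 (ENSMUSG00000052392, 84038379 to 84044723) and Acot3 (ENSMUSG00000021228, 84052144 to 84059565). Acot5 and Acot6 followed, so that 6 genes filled 123 kb. The other 3 members lay elsewhere: Acot8 (ENSMUSG00000017307) on chromosome 2 from 164792768 to 164804882, Acot12 (ENSMUSG00000021620) on chromosome 13 from 91741512 to 91786148, and Acot13 (ENSMUSG00000006717) on chromosome 13 from 24817948 to 24831517. These are the coordinates of the deposited tables, whose build is not named. They coincide with or lie close to those of GRCm38 in GENCODE M21.

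**Figure D1:**
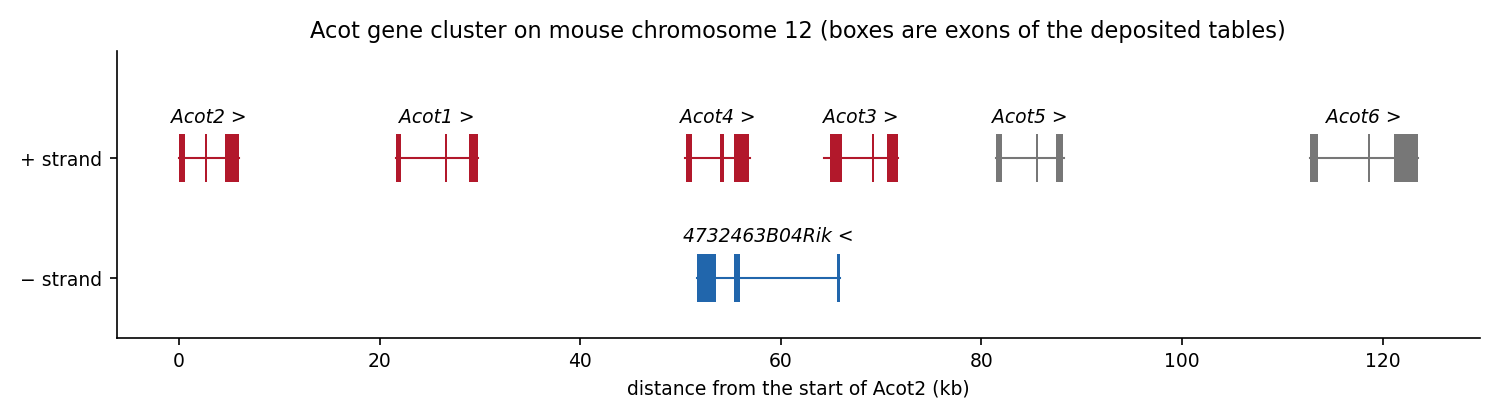
The Acot cluster of chromosome 12, with distance from the start of Acot2 in kb on the horizontal axis; boxes are exons in the deposited tables, members are red, Acot5 and Acot6 grey, and 4732463B04Rik on the minus strand blue. The 6 Acot genes run in 1 direction over 123 kb, and exons of 4732463B04Rik lie under exons of Acot4 and Acot3.

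The bases just upstream of the 4 neighbours are shown as a description. These paralogs differ below in which genotype holds their highest mean, though the DKO and MttpLKO libraries overlap for each. A link of those means to these bases was not tested. The windows are the 250 bases before each gene's start, plus strand, from RefSeq on GRCm38.p6, 5′ to 3′, with capitals marking AGGTCA, the half-site of many nuclear receptors, and CCAAT, on either strand (TGACCT and ATTGG on the other).
Acot2, chr12:83987611-83987860: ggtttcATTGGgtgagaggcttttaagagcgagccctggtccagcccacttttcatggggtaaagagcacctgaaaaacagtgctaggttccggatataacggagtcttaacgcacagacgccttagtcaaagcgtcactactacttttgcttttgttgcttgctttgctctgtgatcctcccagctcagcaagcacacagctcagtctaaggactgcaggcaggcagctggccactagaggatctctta
Acot1, chr12:84009252-84009501: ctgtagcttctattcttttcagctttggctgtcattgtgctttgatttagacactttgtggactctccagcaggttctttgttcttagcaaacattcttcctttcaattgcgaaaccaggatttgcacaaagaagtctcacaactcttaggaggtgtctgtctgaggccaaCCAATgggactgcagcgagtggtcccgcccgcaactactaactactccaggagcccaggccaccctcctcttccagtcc
Acot4, chr12:84038129-84038378: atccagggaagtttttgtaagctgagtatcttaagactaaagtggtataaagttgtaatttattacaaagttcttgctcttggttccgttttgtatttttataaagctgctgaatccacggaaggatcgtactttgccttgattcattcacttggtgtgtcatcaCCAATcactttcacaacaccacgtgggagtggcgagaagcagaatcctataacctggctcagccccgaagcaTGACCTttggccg
Acot3, chr12:84051894-84052143: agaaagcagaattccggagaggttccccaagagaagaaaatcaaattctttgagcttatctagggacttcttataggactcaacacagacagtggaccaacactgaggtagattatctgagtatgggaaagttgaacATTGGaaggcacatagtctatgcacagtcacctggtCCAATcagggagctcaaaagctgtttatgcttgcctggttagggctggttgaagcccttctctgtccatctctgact
Among these 4 windows AGGTCA was found in that of Acot4 alone, as TGACCT from base -13 to base -8 before the start. It is part of the 13 bases TGACCTTTGGCCG (-13 to -1), which match NGGNCANAGGNCA on the minus strand, a loosened form of the direct repeat with a 1-base spacer that PPARalpha binds with its partner RXR. Of 27025 RefSeq promoter windows of the same length, 1 per gene, 13.8% held AGGTCA and 0.67% held NGGNCANAGGNCA on either strand. The tighter forms AGGNCANAGGNCA (0.333% of windows) and AGGTCANAGGTCA (0.037%) had no match in any member with a window. CCAAT (34.5% of windows) stood at -79 in Acot1, -244 in Acot2, -113 and -77 in Acot3 and -85 in Acot4. TATAAA (13% of windows) matched in Acot4 alone, and GGGCGG (32.9%) matched in Acot1, Acot8 and Acot12. The window of Acot12 held AGGTCA at -110 and that of Acot8 held CCAAT at 3 places. Acot13 had no window among the RefSeq promoters and was not searched. These are matches of letters in a short window, and no binding was measured.

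The paralogs share sequence, which bears on how far their reads can be told apart. Between coding sequences, Acot1 and Acot2 were identical at 95.5% of aligned bases, Acot1 and Acot3 at 84%, Acot2 and Acot3 at 84.3%, and Acot4 and the other 3 at 75.9% to 78.2%. Of the 50-base stretches in the longest coding transcript (GENCODE M21), 32.3% of those in Acot1 and 27.6% of those in Acot2 also occurred in another gene of the family, mostly in each other. The share was 7.69% for Acot3, 4.48% for Acot4 and 0 for Acot8, Acot12 and Acot13. Counted against any other gene of the annotation, on either strand, it was 33.2% for Acot1, 27.7% for Acot2, 21.7% for Acot3 and 14.4% for Acot4. It was 17.7% for Acot8, 3.32% for Acot12 and 0 for Acot13. Acot8 shared these stretches with Snx21 (17.7%). Acot4 shared 11.2% with 4732463B04Rik, and Acot3 shared 7.81% with 4732463B04Rik and 11.2% with Gm49366. These transcripts are not the exons that were counted. They hold 6203 bases against 2508 counted for Acot4, 3431 against 2601 for Acot3 and 2272 against 1559 for Acot1. For Acot8 the transcript is shorter, at 1152 against 1994. The shares within the counted exons were not computed and may differ. How reads matching several genes were handled is not given in the sources used here, so the split between Acot1 and Acot2 is uncertain. What Acot3 and Acot4 hold of stretches shared with other genes is uncertain too. Some of this sharing is overlap of exons at the same place in the genome. The exons of 4732463B04Rik, a gene on the opposite strand, cover 24.5% of the exon bases of Acot4 and 12% of those of Acot3. Snx21 covers 12.2% of the exon bases of Acot8 in the same way. Whether counting used the strand is not given, so reads of such pairs may not be separable.

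Total counts per library ran from 23268389 to 23429588 in DKO, 26362408 to 27918197 in MttpLKO and 24995426 to 27080442 in control. The deletions were visible: Mttp stood at 3.23 to 5.78 CPM (counts scaled to a common library size, here with TMM) in DKO and 6.13 to 9.77 in MttpLKO, against 69.4 to 181 in control, and Fabp1 stood at 50.2 to 77.9 CPM in DKO, against 3377 to 4979 in MttpLKO and 6056 to 6841 in control. Hepatocyte markers (8 of 8 detected) summed to 60232 CPM in DKO replicate 1 and to between 78309 and 103582 CPM in the other 8 libraries. Alb made up most of that sum (34938 CPM in DKO replicate 1). Alb, Ttr, Apoa1, Apoc3 and Serpina1c each had their lowest DKO value in that library. Tat (1939 CPM), Cps1 (1641) and Ass1 (942) were higher there than in DKO replicate 2 (922, 1218 and 764). MttpLKO replicate 3 stood apart, at 53.7 on the first principal component against -17.4 to 9.62 for the others, with B and plasma cell markers summing to 57.1 CPM there and 4.79 to 8.27 elsewhere. That library was also the highest for stellate (378 CPM, against 181 to 256 elsewhere), bile duct (139, against 62.7 to 102) and proliferation markers (25.5, against 5.62 to 13.3), each list with all its markers detected. Macrophage markers (7 of 7 detected) summed to 56.9 to 133 CPM in DKO, to 34.3, 41.7 and 102 in MttpLKO replicates 1, 2 and 3, and to 86.1 to 123 in control. Adipocyte markers (1 of 5 at 0) summed to 56.8 CPM in DKO replicate 2 and 1.44 to 11.8 elsewhere. Cfd made up most of each sum (56.6 CPM in DKO replicate 2), while Adipoq, Plin1 and Retn stood at 0.0851, 0 and 0.0851 CPM in that library. Control replicate 1 held more Mttp than the other controls. What part these features play in the values of the members was not tested. Values without control replicate 1 or MttpLKO replicate 3 are given with the results below.

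Per length, Acot13 was the most abundant member in every library. In RPKM, the authors' values scaled for exon length and library total, it had 99.3, 112 and 68 in the DKO libraries (replicates 1, 2 and 3), 96.8, 102 and 106 in the MttpLKO libraries and 106, 99.8 and 105 in the controls. Acot12 and Acot1 came next. In control, Acot12 (33.7 ± 1.62 RPKM, SD, n = 3) lay above Acot1 (14.5 ± 4.01) in 3 of 3 libraries without overlap. In DKO, Acot1 (36.5 ± 14.9) was above Acot12 (30.3 ± 4.3) in 2 of 3 libraries and the ranges overlapped. The 4 lowest were Acot8, Acot3, Acot4 and Acot2, with means of 7.66 to 13.8 RPKM in DKO, 4.5 to 12 in MttpLKO and 3.91 to 10.7 in control.

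Of the RPKM summed over the 7 members, Acot13 took 46.9% ± 11.1 in DKO, 52% ± 3.55 in MttpLKO and 58.7% ± 3.6 in control (SD, n = 3 each). Acot1 took 18.2% ± 7.07 in DKO, 11.3% ± 4.02 in MttpLKO and 8.14% ± 1.9 in control. Acot3 took 4.87% ± 1.88 in DKO, 6.15% ± 0.45 in MttpLKO and 2.49% ± 0.338 in control. The sums themselves were 199 ± 26.9, 196 ± 14.9 and 177 ± 9.31 RPKM in DKO, MttpLKO and control. Acot12 took 15.3% ± 2.27 in DKO, 17.4% ± 1.27 in MttpLKO and 19.1% ± 0.146 in control. By mean, Acot13 held the largest share in each genotype.

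Acot1, the cytosolic long-chain enzyme, had 30.4, 59.4 and 81.8 CPM in the DKO libraries, 22.9, 53.1 and 31.1 in the MttpLKO libraries and 15.9, 23.9 and 27.4 in the controls. Every DKO library was above every control, while the MttpLKO libraries overlapped both. The fitted log2 fold change was 1.35 ± 0.37 (SE, 95% interval 0.53 to 2.17) for DKO vs control, a 2.55-fold difference that did not pass the test over all genes (edgeR's quasi-likelihood test, Benjamini-Hochberg adjusted p = 0.211). It was 0.68 ± 0.37 (interval -0.13 to 1.48) for DKO vs MttpLKO and 0.67 ± 0.37 (interval -0.14 to 1.48) for MttpLKO vs control. The interval of each step alone includes no difference. These steps moved with single libraries: MttpLKO vs control was 0.27 without MttpLKO replicate 2, and DKO vs MttpLKO was 0.34 without DKO replicate 3 and 1.09 without MttpLKO replicate 2. In these bulk livers, fewer cells of a type and less RNA per cell cannot be told apart, for this gene and those that follow.

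Acot2, the mitochondrial enzyme, had 11.2, 20.9 and 19.7 CPM in the DKO libraries, 9.28, 11.3 and 9.48 in the MttpLKO libraries and 5.09, 9.74 and 10.8 in the controls. Every DKO library was above every control, though DKO replicate 1 and control replicate 3 lay close together. DKO replicates 2 and 3 were above every MttpLKO library, and DKO replicate 1 lay within the MttpLKO range. The log2 fold change was 1.01 ± 0.28 (SE, interval 0.39 to 1.63) for DKO vs control, or 2.02-fold (edgeR adjusted p = 0.215). It was 0.78 ± 0.28 (interval 0.17 to 1.4) for DKO vs MttpLKO (edgeR adjusted p = 0.405). For MttpLKO vs control it was 0.23 ± 0.28 (interval -0.40 to 0.85), and MttpLKO lay inside or just above the control range.

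Acot3, a peroxisomal long-chain enzyme, had 11.8, 37.7 and 28.9 CPM in the DKO libraries, 30.1, 32.3 and 32.4 in the MttpLKO libraries and 9.49, 11.4 and 13.4 in the controls. The 3 MttpLKO libraries were nearly equal and all above the controls, while the DKO libraries were spread from a control-like value in replicate 1 to the highest value of all in replicate 2. The log2 fold change for MttpLKO vs control was 1.46 ± 0.32 (SE, interval 0.75 to 2.17), or 2.76-fold, with an edgeR adjusted p of 0.135. For DKO vs control it was 1.19 ± 0.32 (interval 0.48 to 1.90; edgeR adjusted p = 0.209), and for DKO vs MttpLKO -0.28 ± 0.31 (interval -0.96 to 0.41).

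Acot4, the peroxisomal enzyme that in mouse cleaves succinyl-CoA, had 13.9, 23.1 and 20.4 CPM in the DKO libraries, 27.8, 26 and 22 in the MttpLKO libraries and 13.2, 15 and 15.5 in the controls. All MttpLKO libraries were above all controls, and DKO lay between by mean and overlapped both, with replicate 1 inside the control range and replicate 2 above MttpLKO replicate 3. The log2 fold change was 0.80 ± 0.18 (SE, interval 0.41 to 1.19) for MttpLKO vs control, or 1.74-fold (edgeR adjusted p = 0.14). It was -0.40 ± 0.18 (interval -0.79 to -0.01) for DKO vs MttpLKO and 0.39 ± 0.18 for DKO vs control, with edgeR adjusted p of 0.533 and 0.442. The opposite-strand gene 4732463B04Rik had 3.01, 7.02 and 4.97 CPM in DKO, 11.6, 6.76 and 5.55 in MttpLKO and 4.65, 5.53 and 5.78 in control. MttpLKO replicate 1 was the highest library for both this gene and Acot4, and the part of shared reads in either was not tested.

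Acot8, the broad peroxisomal enzyme, had 23.2, 28.3 and 30.9 CPM in the DKO libraries, 23.8, 26.8 and 16.9 in the MttpLKO libraries and 18.1, 22.7 and 23.1 in the controls. Each DKO library was above each control by a small margin, and MttpLKO overlapped both. The log2 fold change for DKO vs control was 0.37 ± 0.18 (SE, interval -0.03 to 0.76; edgeR adjusted p = 0.48). For DKO vs MttpLKO it was 0.29 (interval -0.11 to 0.68) and for MttpLKO vs control 0.08 (interval -0.31 to 0.47).

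Acot12, the acetyl-CoA hydrolase, had 80.3, 99.1 and 119 CPM in the DKO libraries, 117, 123 and 101 in the MttpLKO libraries and 108, 109 and 115 in the controls. The 3 ranges overlapped, with DKO replicate 1 the lowest library. Acot13 had 67.2, 80.4 and 51.1 CPM in the DKO libraries, 72.3, 75.4 and 74.7 in the MttpLKO libraries and 77.1, 72 and 74 in the controls. MttpLKO and control were level, and DKO held both the highest and the lowest library. For Acot12 the log2 fold changes were -0.15 (DKO vs control, interval -0.46 to 0.15), -0.19 (DKO vs MttpLKO, -0.50 to 0.11) and 0.04 (MttpLKO vs control, -0.27 to 0.35). For Acot13 they were -0.17 (-0.48 to 0.14), -0.16 (-0.47 to 0.15) and -0.00 (-0.31 to 0.31). These intervals reach at most 0.5 on the log2 scale in either direction, narrower than those of the type I genes.

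**Figure D2:**
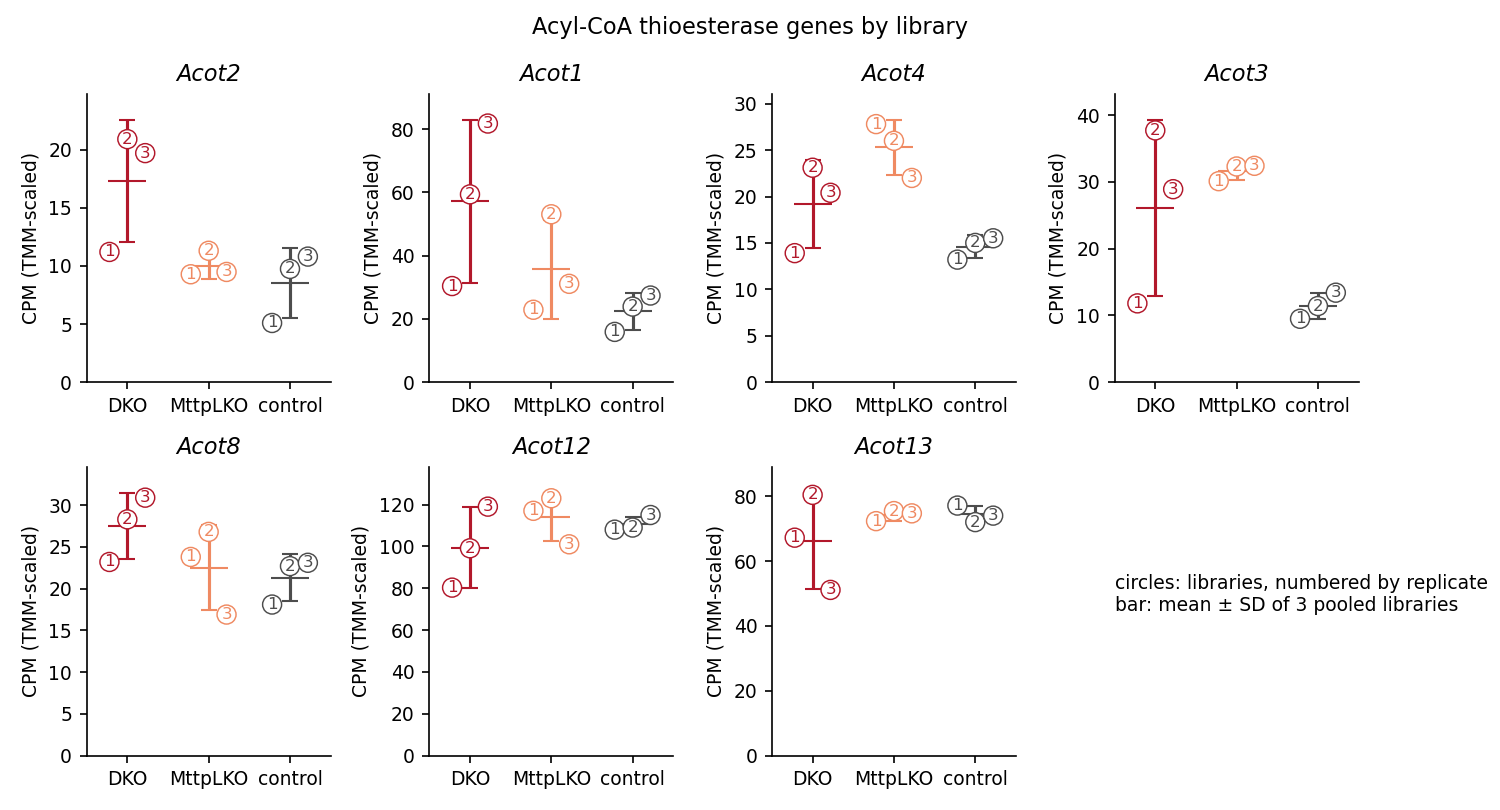
Abundance of the 7 members in each library in CPM on TMM-scaled library sizes, 1 panel per gene with its own vertical axis from 0; circles are the 3 libraries of DKO, MttpLKO and control, numbered by replicate, and bars are mean ± SD. Acot3 in MttpLKO (30.1 to 32.4 CPM) lies above control (9.49 to 13.4), while DKO runs from 11.8 to 37.7.

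By the test over all genes, no member differed between MttpLKO and control (0 of 7; 0.346% of all genes were called), between DKO and MttpLKO (0 of 7; background 0.4%) or between DKO and control (0 of 7; background 0.332%). At an unadjusted edgeR p under 0.05 the members numbered 2 of 7 for MttpLKO vs control (Acot3 and Acot4; 6.97% of all genes), 2 of 7 for DKO vs MttpLKO (Acot2 and Acot4 in opposite directions; 9.1%) and 4 of 7 for DKO vs control (Acot1 to Acot4, all higher; 11.2%). With limma-voom, 0 members passed in each comparison. With DESeq2, Acot3 and Acot4 passed for MttpLKO vs control, none for DKO vs MttpLKO, and Acot2 and Acot3 for DKO vs control. Libraries were all higher without overlap for 2 members in MttpLKO vs control (Acot3 and Acot4; 7.25% of all genes) and 3 members in DKO vs control (Acot1, Acot2 and Acot8; 8.96%), and for 0 members in DKO vs MttpLKO (5.67%). The median log2 fold change of the members was 0.23 for MttpLKO vs control, -0.16 for DKO vs MttpLKO and 0.39 for DKO vs control, beside 0.01, -0.02 and -0.00 over all 14741 genes. The comparisons share libraries and so are not separate evidence.

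**Figure D3:**
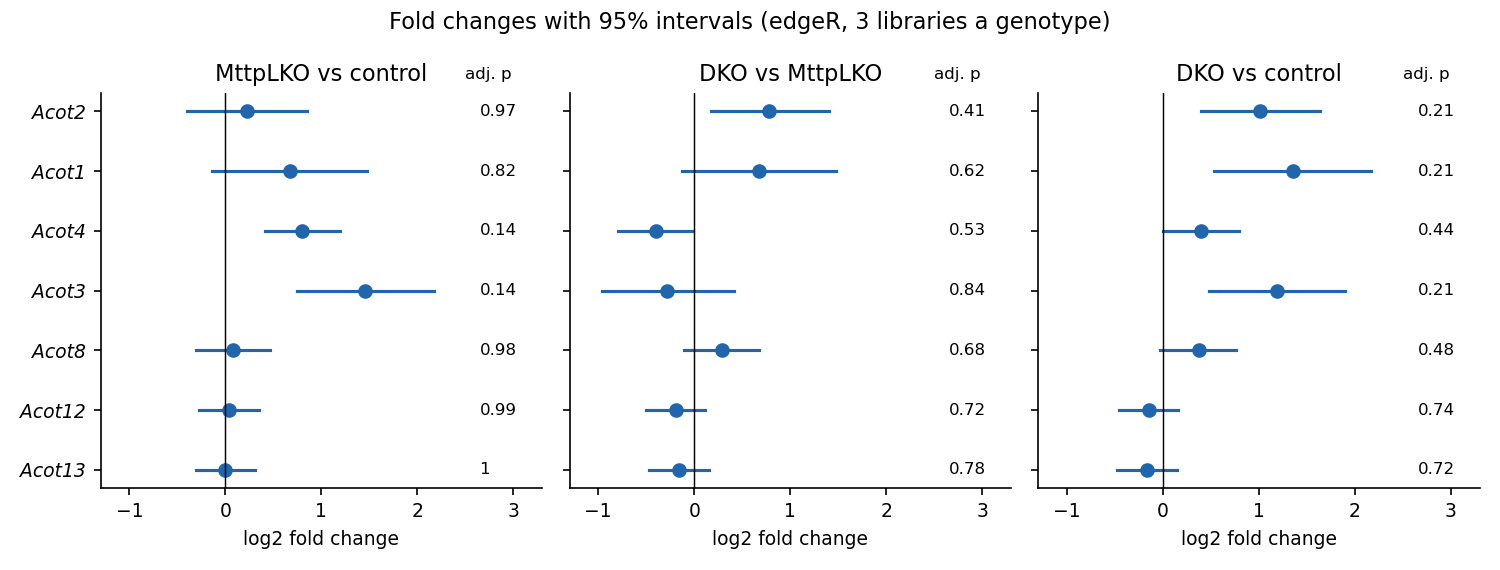
Log2 fold changes of the 7 members with 95% intervals in MttpLKO vs control, DKO vs MttpLKO and DKO vs control; numbers are edgeR adjusted p over all genes. Acot3 (1.46) and Acot4 (0.80) lead in MttpLKO vs control, Acot1 (1.35), Acot3 (1.19) and Acot2 (1.01) in DKO vs control, and none passes the threshold.

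Leaving out libraries that stand apart kept the values of Acot3 and Acot4 for MttpLKO vs control close to those above, and leaving out DKO replicate 1 changed their calls. Without MttpLKO replicate 3, the log2 fold changes for MttpLKO vs control were 1.44 for Acot3 and 0.88 for Acot4. Without control replicate 1 they were 1.35 and 0.73, and without both libraries 1.32 and 0.81, uncalled each time. Without DKO replicate 1, both genes passed for MttpLKO vs control (edgeR adjusted p = 0.00251 for Acot3 and 0.0389 for Acot4). Fold changes were still at 1.46 and 0.80, and 14984 genes were tested in place of 14741. In this fit the 3 genotypes share 1 estimate of spread. The coefficient of variation of Acot3 CPM was 50.5% in DKO, 4.06% in MttpLKO and 17.1% in control. For Acot4 it was 24.8%, 11.8% and 8.49%. What part the DKO spread had in these calls was not tested. Leaving out DKO replicate 1, Acot3 passed for DKO vs control (log2 fold change 1.54, edgeR adjusted p = 0.0059). Its DKO vs MttpLKO value was then 0.07 in place of -0.28. For MttpLKO vs control without control replicate 1, Acot2 was -0.03 and Acot8 was -0.03, and Acot8 was 0.24 without MttpLKO replicate 3. For DKO vs control, leaving out control replicate 1 gave 1.17 for Acot1, 0.77 for Acot2 and 0.28 for Acot8, leaving out MttpLKO replicate 3 gave 1.34, 1.01 and 0.36, and leaving out both gave 1.15, 0.74 and 0.26, uncalled each time.

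Replicate 1 was the lowest library for 6 of the 7 members in DKO (all but Acot13; 28.6% of all genes had their lowest DKO value there). It was also the lowest control for the same 6 members (38.7% of all genes). In MttpLKO the lowest value fell in replicate 1 for 4 members (36.7% of all genes) and in replicate 3 for the other 3 (36.5%). In DKO replicate 1 this went with the lowest sum of hepatocyte markers, while in control replicate 1 that sum (96911 CPM) lay between those of the other controls (98086 and 85555 CPM). Among the DKO libraries, Alb, Ttr, Apoa1, Apoc3 and Serpina1c were lowest in replicate 1, while Tat, Cps1 and Ass1 were not. The part of hepatocyte content in the values of the members was not tested.

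Ratios between neighbours within 1 library set aside what moves the whole cluster. The ratio of Acot3 to Acot2 in RPKM was 0.887, 1.52 and 1.24 in DKO, 2.74, 2.42 and 2.88 in MttpLKO and 1.57, 0.991 and 1.05 in control. MttpLKO stood above both other genotypes without overlap, and DKO and control overlapped. The mean log2 ratio differed by 1.18 for MttpLKO vs control and -1.17 for DKO vs MttpLKO (exact permutation test, two-sided, p = 0.1 each, the smallest that 3 against 3 can give). For DKO vs control the difference was 0.01 (exact permutation p = 1). The 6 ratios among the 4 neighbours gave 18 such tests, and the lowest adjusted p was 0.225, a floor set by the design.

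The ratio of Acot4 to Acot2 was 1.09, 0.97 and 0.91 in DKO, 2.62, 2.02 and 2.03 in MttpLKO and 2.27, 1.35 and 1.26 in control. Here DKO was below both others without overlap, by -1.16 against MttpLKO and -0.67 against control on the log2 scale (exact permutation p = 0.1 each). Acot4 to Acot1 was also lowest in DKO, at 0.155 to 0.284 in DKO, 0.305 to 0.755 in MttpLKO and 0.352 to 0.514 in control. Acot3 to Acot4 was 0.817, 1.57 and 1.36 in DKO, 1.05, 1.2 and 1.42 in MttpLKO and 0.695, 0.737 and 0.832 in control. MttpLKO lay above control (difference 0.69 on the log2 scale, exact permutation p = 0.1) and did not separate from DKO. Acot3 to Acot1 was 0.212 to 0.38 in DKO, 0.365 to 0.79 in MttpLKO and 0.286 to 0.358 in control, with MttpLKO above control and overlapping DKO. Acot1 to Acot2, the pair with the most shared sequence, overlapped throughout, at 3.83 to 5.86 in DKO, 3.47 to 6.64 in MttpLKO and 3.46 to 4.4 in control. By mean CPM, Acot3 and Acot4 were highest in MttpLKO, and Acot1 and Acot2 were highest in DKO. For each of these genes the DKO and MttpLKO libraries overlapped. For Acot3 the order of the means rests on DKO replicate 1 (11.8 CPM). Without that library its log2 fold change for DKO vs MttpLKO was 0.07 in place of -0.28.

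**Figure D4:**
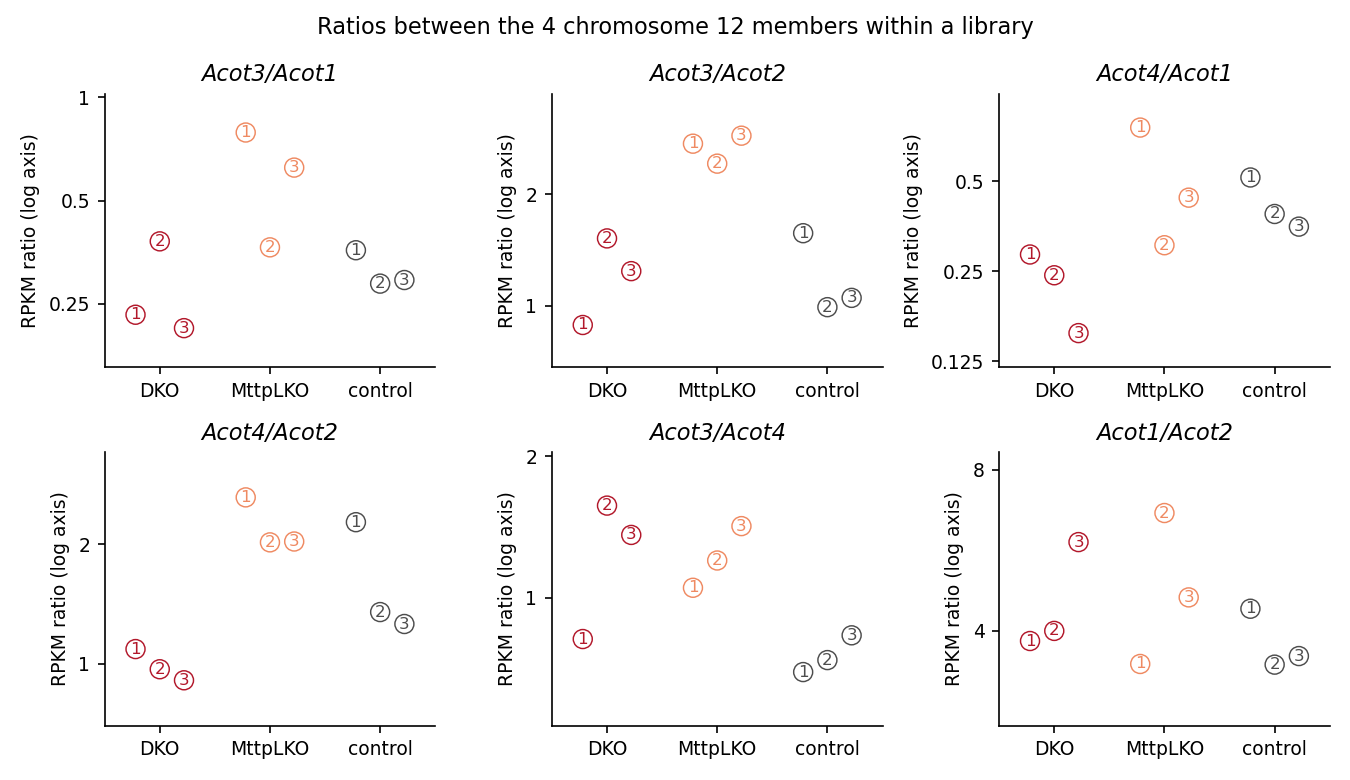
RPKM ratios between the 4 chromosome 12 members within each library, on log axes that differ between panels; numbers in circles are replicates of DKO, MttpLKO and control. The MttpLKO libraries stand highest for Acot3/Acot2 (2.42 to 2.88), the DKO libraries lowest for Acot4/Acot2 (0.91 to 1.09), and Acot1/Acot2 overlaps in all 3 genotypes.

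A sum over paralogs does not depend on how reads shared among its own genes were split between them. It still depends on reads shared with genes outside the sum, and on whether reads matching several genes were kept. Of its 50-base stretches, Acot3 shared 3.58% with Acot4, 5.06% with Acot1 and 11.2% with Gm49366. Acot1 and Acot2 together had 74.5 ± 30.3 CPM in DKO, 45.7 ± 16.7 in MttpLKO and 31 ± 8.92 in control (SD, n = 3 each). Acot3 and Acot4 together had 45.3 ± 17.9 CPM in DKO, 56.9 ± 2.19 in MttpLKO and 26 ± 3.16 in control. Fitted as 1 feature, Acot1 plus Acot2 gave a log2 fold change of 1.26 for DKO vs control (edgeR adjusted p = 0.208), 0.70 for DKO vs MttpLKO (0.568) and 0.56 for MttpLKO vs control (0.857). Acot1 to Acot6 fitted together gave 1.07, 0.23 and 0.84 (edgeR adjusted p = 0.174, 0.843 and 0.438) in the same order of comparisons. No sum passed. The neighbours added little: Acot6 had at most 3.13 CPM in any library, and Acot5, which did not pass the filter, had 8 counts over the DKO libraries, 0 over MttpLKO and 1 over control.

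Across the 9 libraries, as a description over few points that share genotypes, log2 CPM of Acot3 and Acot4 correlated at r = 0.94 (0.89 within genotypes) and Acot1 and Acot2 at 0.90 (0.81 within genotypes). Acot3 and Acot1 correlated at 0.68, and Acot4 and Acot2 at 0.42 (0.77 within genotypes). Coefficients of Acot13 with the other members ran from -0.49 (Acot1) to 0.03 (Acot4), and within genotypes from -0.49 (Acot12) to 0.08 (Acot3). Among all genes tested, the 3 most alike to each member by this measure were Cyp4a31 (0.955), Hsdl2 (0.94) and Tnfsf13 (0.916) for Acot1, Ap3s1 (0.951), Nostrin (0.946) and Nfe2l1 (0.941) for Acot2, and Acot4 (0.94), Ccdc115 (0.933) and Tdpx-ps1 (0.925) for Acot3. For Acot4 they were Tceanc2 (0.966), Tdpx-ps1 (0.954) and Acot3, for Acot8 Hsd17b4 (0.963), Slc25a20 (0.96) and Celf3 (0.954), for Acot12 Gtpbp10 (0.96), Mtch2 (0.953) and Cul5 (0.949), and for Acot13 Mrpl58 (0.965), Ccs (0.961) and Pmf1 (0.958). These coefficients are the highest of 14741 and so are high by selection. Cyp4a31, a fatty acid omega-hydroxylase of the Cyp4a group, had 12.3, 25.4 and 37 CPM in DKO, 9.62, 18.6 and 16.9 in MttpLKO and 7.8, 8.01 and 13.3 in control, and was not called in any comparison.

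The other thioesterases and related genes gave 16 tested genes of 20 in the tables, and 0 were called by edgeR in any of the 3 comparisons (2, 1 and 0 at an unadjusted p under 0.05 for MttpLKO vs control, DKO vs MttpLKO and DKO vs control). Their median log2 fold changes were 0.09, -0.04 and 0.15 in the same order. The smallest p belonged to Nudt7, a peroxisomal coenzyme A hydrolase that consumes the product of the thioesterases. Nudt7 had 522, 550.0 and 498 CPM in DKO, 318, 203 and 352 in MttpLKO and 619, 406 and 328 in control. DKO lay above MttpLKO without overlap (log2 fold change 0.85 ± 0.24, edgeR adjusted p = 0.272). For MttpLKO vs control Nudt7 (-0.63, edgeR adjusted p = 0.606), Fasn (-0.77), the fatty acid synthase, and Ppt1 (0.27), a lysosomal palmitoyl-protein thioesterase, had the smallest p. Acot7 (-0.22) and Acnat1 (0.36) followed for DKO vs MttpLKO, and Nudt19 (-0.28), Ppt1 (0.23) and Acot6 (0.91) led for DKO vs control.

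The acyl-CoA synthetases, which run the opposite reaction, gave 17 tested genes. Acsf2, a mitochondrial medium-chain acyl-CoA synthetase, had 235, 255 and 242 CPM in DKO, 184, 152 and 154 in MttpLKO and 174, 180.1 and 176 in control. The DKO libraries were above all others, and the MttpLKO and control libraries overlapped. Acsf2 was the 1 synthetase called, for DKO vs MttpLKO, at a log2 fold change of 0.58 ± 0.11 (SE; edgeR adjusted p = 0.048). Its value for DKO vs control was 0.46 (edgeR adjusted p = 0.127). With each of the 9 libraries left out in turn, the DKO vs MttpLKO value stayed between 0.54 and 0.69, but the call held in 1 of 9 cases, without MttpLKO replicate 1 (edgeR adjusted p 0.0317 to 0.288). It was 0.54 and uncalled without control replicate 1 and MttpLKO replicate 3 (edgeR adjusted p = 0.138), and uncalled with the replicate block (0.124) and with the compared libraries alone (0.209). Slc27a4, a fatty acid transport protein with synthetase activity, had 0.26 and 0.30 in these comparisons, uncalled. Acsl4 (0.55) and Acss3 (0.58) had the smallest p for MttpLKO vs control, where 0 of 17 were called by edgeR and 0 had an unadjusted p under 0.05.

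In peroxisomal oxidation, 22 genes were tested and 1 was called. Abcd2, a peroxisomal importer of very-long-chain acyl-CoA, had 8.88, 10.9 and 9.4 CPM in DKO, 16.4, 13.8 and 17.9 in MttpLKO and 3.23, 7.33 and 6.22 in control. The MttpLKO libraries were above the DKO libraries and these above the controls, without overlap. Among the members, the means of Acot3 and Acot4 had this order, with DKO libraries that overlapped both other genotypes. Abcd2 rose in MttpLKO vs control (log2 fold change 1.52 ± 0.25 SE, 2.86-fold, edgeR adjusted p = 0.0356). With each library left out in turn, its value stayed between 1.24 and 1.75, but the call held in 2 of 9 cases, without control replicate 1 (1.24) and without DKO replicate 3 (edgeR adjusted p 0.0276 to 0.13). It was 1.42 and uncalled without MttpLKO replicate 3 (edgeR adjusted p = 0.0911), 1.15 and uncalled without that library and control replicate 1 (0.0521), and uncalled with the compared libraries alone (0.102). Hacl1 (0.30), the 2-hydroxyacyl-CoA lyase, came second there. Ehhadh, the peroxisomal bifunctional enzyme, was 0.64 for DKO vs MttpLKO and 0.78 for DKO vs control (edgeR adjusted p = 0.215 and 0.103), Acaa1b, a peroxisomal thiolase, was 0.57 for DKO vs MttpLKO, and Crat, the carnitine acetyltransferase, was 0.92 for DKO vs control (edgeR adjusted p = 0.103). None of these passed. Of the 22, 6 had an unadjusted p under 0.05 in DKO vs MttpLKO, 5 of them higher, and 6 in DKO vs control, all higher, and the medians were 0.19 and 0.18.

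In mitochondrial beta-oxidation, 0 of 18 tested genes were called by edgeR in each comparison, and 0, 0 and 4 had an unadjusted p under 0.05 for MttpLKO vs control, DKO vs MttpLKO and DKO vs control. Hadhb (0.23) and Acadm (0.27) had the smallest p in the first, the carnitine carrier Slc25a20 (0.30) and Cpt2 (0.24) in the second, and Acadvl (0.38) and Slc25a20 (0.39) in the third, on the log2 scale. Of the 24 tested PPARalpha targets and regulators, the deleted Fabp1 was the 1 called, lower in DKO against either other genotype. At an unadjusted p under 0.05 there were 3 for MttpLKO vs control (all lower), 8 for DKO vs MttpLKO (6 higher, 2 lower) and 10 for DKO vs control (8 higher, 2 lower). The medians of the list were 0.01, 0.28 and 0.26 in that order, beside 0.23, -0.16 and 0.39 for the thioesterase members. Ucp2, a mitochondrial carrier, was 0.95 for DKO vs MttpLKO (edgeR adjusted p = 0.185), and Fabp2, the intestinal fatty acid-binding protein, was -0.85 for MttpLKO vs control (edgeR adjusted p = 0.338).

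**Figure D5:**
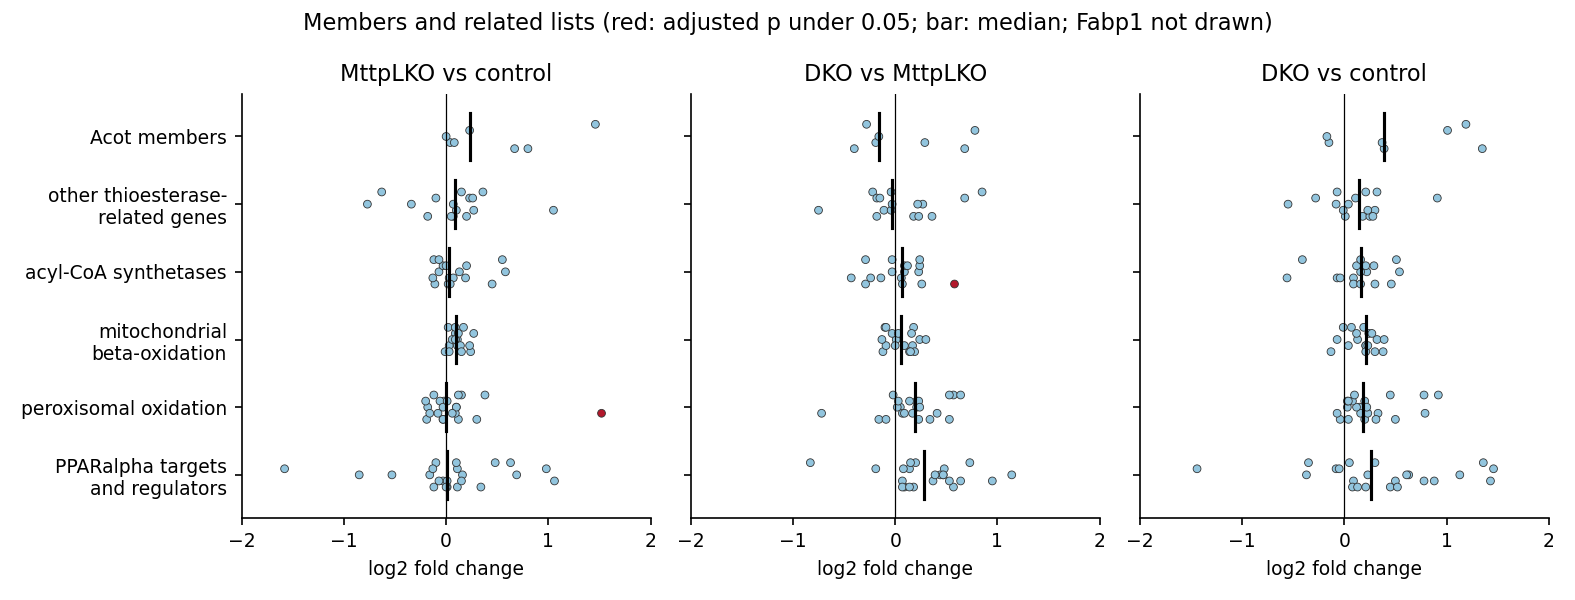
Log2 fold changes of the members and of the related lists in the 3 comparisons; each point is a tested gene, red points passed the edgeR test, bars are medians over the whole list, and Fabp1 is left out of the drawing. Abcd2 in MttpLKO vs control (1.52) and Acsf2 in DKO vs MttpLKO (0.58) are the red points.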

How the data were processed

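RNA was measured in 9 pooled liver libraries. Whole-number read counts per gene, not normalized, were deposited by the authors, per the file headers, with CPM and RPKM that the authors derived from them. These were recomputed from the counts and lengths and differed by at most 5.1e-11 CPM and 4.7e-11 RPKM. The submitters' processing notes list STAR 2.0.4b, featureCounts 1.4.5 and Subread without roles. Build, strand setting and the handling of reads matching several genes: not given in the sources used here. Symbols were found for 97.3% of identifiers.

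Counts were tested with edgeR 4.0.16 (R 4.3.3): filterByExpr with a minimum count of 10, TMM scaling, 1 quasi-likelihood fit of 3 genotype means over 9 libraries, Benjamini-Hochberg adjustment over 14741 genes and a threshold of 0.05. The common dispersion was 0.0335. SE is the absolute log2 fold change over the square root of F. Printed CPM use TMM-scaled library sizes, and the deposited RPKM served only for levels between genes and ratios. Ratios were tested with exact permutation tests (scipy 1.17.1). The fit was also run on counts simulated with its own dispersion estimates, which cannot show how it handles libraries that stand apart. Replicates of each genotype differed by more than counting noise (chi-square per df 21.4 to 71.3). That pools are separate rests on the labels, and p-values measure the spread between pools of 3 mice, which is smaller than that between single mice.

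The members, gene lists and tests were chosen with earlier results of these data known. Genes named were all members, Mttp and Fabp1, the 3 other thioesterase-related genes and the 2 genes of each pathway list with the smallest p per comparison, any gene of these lists that was called, and the 3 genes most correlated with each member. The labels do not pair the libraries by number, and same-numbered libraries did not deviate together over all genes (correlations of deviations -0.244 to 0.0721). Alternatives were RLE and upper-quartile scaling, no low-count filter, a minimum count of 30, DESeq2 1.42.0, limma-voom (limma 3.58.1), the compared libraries alone, a replicate block, removal of the 20 most abundant genes, summed paralogs, and leaving out each library. Leaving out control replicate 1 and MttpLKO replicate 3 together, and the alternatives for Abcd2, Acsf2 and Tdpx-ps1, were chosen after seeing the data.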

Additional observations from a re-analysis of the deposited data

How the results depend on the processing

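Members called for MttpLKO vs control numbered 2 (Acot3 and Acot4) in place of 0 without a low-count filter (edgeR adjusted p = 0.00135 and 0.0142), with DESeq2 (adjusted p = 0.000746 and 0.00774) and with the compared libraries alone (edgeR adjusted p = 0.00464 and 0.048), and 0 to 2 with each library left out, 2 without DKO replicate 1. Over all alternatives adjusted p ran from 0.000746 to 0.494 for Acot3. For DKO vs control they numbered 3 (Acot1, Acot2 and Acot3) without a filter, 2 with DESeq2, and 0 to 1 with each library left out, 1 without DKO replicate 1. For DKO vs MttpLKO they numbered 0 in each alternative run. The cause was not tested.

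Genes called for MttpLKO vs control numbered 171 without a filter, 165 with DESeq2, 31 without control replicate 1 and MttpLKO replicate 3, and 14 to 54 with each library left out (25, 14 and 14 without control replicates 1, 2 and 3, 19 without MttpLKO replicate 2, 29 without DKO replicate 2). For DKO vs MttpLKO they numbered 180, 214, 34 with the compared libraries alone, and 22 to 73 (22 without MttpLKO replicate 2, 37 without DKO replicate 2). For DKO vs control they numbered 201, 256, 78 with the compared libraries alone, 80 without both libraries, and 15 to 100 (23, 15 and 15 without control replicates 1, 2 and 3, 100 without MttpLKO replicate 3, 28 and 20 without DKO replicates 1 and 3).

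With the replicate block, genes called numbered 35, 43 and 40 for MttpLKO vs control, DKO vs MttpLKO and DKO vs control, and members called 0, 0 and 0. Libraries of different genotypes hold different mice, and whether equal numbers mark a shared day is not given in the sources used here. With 3 pools per genotype, the interval for Acot1 in DKO vs control ran from 0.53 to 2.17 on the log2 scale, so moderate differences could be missed. Near-zero values changed sign under some alternatives for Acot2, Acot8, Acot12 and Acot13 in MttpLKO vs control and for Acot3 in DKO vs MttpLKO (-0.63 to 0.07 with each library left out), none of them called.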

Other observations

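Acnat2, which encodes a peroxisomal acyltransferase related to the type I thioesterases and was chosen after its values were seen, had 9.52, 10 and 17.3 CPM in DKO, 19.4, 28.4 and 13.9 in MttpLKO and 2.42, 13.2 and 14.1 in control. Control replicate 1 was the lowest library of all. Its log2 fold changes were 1.05 ± 0.50 for MttpLKO vs control (SE, edgeR adjusted p = 0.742), -0.75 ± 0.50 for DKO vs MttpLKO (edgeR adjusted p = 0.7) and 0.30 ± 0.50 for DKO vs control (edgeR adjusted p = 0.887). Cyp4a14, an omega-hydroxylase gene also chosen after its values were seen, had 828, 1538 and 2052 CPM in DKO, 919, 1462 and 786 in MttpLKO and 169.6, 487 and 948 in control. Its lowest DKO and control values were in replicate 1, as for 6 of the 7 thioesterase members, and it was not called (log2 fold change 1.46 ± 0.52 for DKO vs control, edgeR adjusted p = 0.336).

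Tdpx-ps1, one of the genes most alike to Acot3 and Acot4 over the libraries, had 0.201, 1.23 and 2.06 CPM in DKO, 4.73, 4.26 and 4.04 in MttpLKO and 0.0404, 0.263 and 0.289 in control. The MttpLKO vs control difference passed the test, at 4.40 ± 0.68 on the log2 scale (SE; edgeR adjusted p = 0.0303), and rests on 1, 7 and 8 counts in the control libraries. With each of the 9 libraries left out in turn, its value stayed between 3.95 and 4.76 and the call held in 3 cases, without MttpLKO replicate 3, DKO replicate 1 or DKO replicate 3 (edgeR adjusted p 0.00203 to 0.131).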
